A study of Mus musculus with 16 samples.

Results

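The collapsin response mediator proteins (CRMPs) form a family of 5 genes in the mouse, Crmp1, Dpysl2, Dpysl3, Dpysl4 and Dpysl5. The genes were found by symbol among the 53801 gene rows of the count table, and all 5 passed the filter on low counts, which 19438 rows passed. The family was chosen by measured values, because the fall of Dpysl3 in the mutant mice is among the largest in the data. The contrast of mutant with control mice is therefore given here as a description of the members, with their calls counted but nothing read from them. The difference between tissues, and the difference between the effects in the tissues, are other contrasts, but they use the same libraries and are not independent of that choice. They were tested for the other 4 members and are given without a test for Dpysl3.

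CRMPs are phosphoproteins of the cytosol that bind tubulin and shape the growth cone of developing neurons. They were first known for the collapse of growth cones in response to Sema3a, a secreted guidance cue read by neuropilin and plexin receptors, and kinases such as Cdk5, GSK3 and ROCK lower their affinity for tubulin by phosphorylation. They resemble dihydropyrimidinase, an enzyme of pyrimidine breakdown, but are not known to carry out its reaction, and they are abundant in the brain while axons grow.

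RNA of the cortex and the striatum of 9 mice, aged 10 days and of the strain C57BL6/J-129sv, was sequenced in 16 libraries, 4 per group. Control mice (Trrap Fl/+; Camk2-Cre tg) carried 1 floxed and 1 wild-type Trrap allele and mutant mice, called Trrap-FBΔ (Trrap Fl/Fl; Camk2-Cre tg), carried floxed alleles only, and both genotypes carried the Camk2-Cre transgene. Control cortices came from mice 55, 58, 63 and 64 (2 females, 2 males), control striata from mice 58, 63, 64 and 65 (1 female, 3 males), and both Trrap-FBΔ tissues from mice 57, 59, 60 and 61 (3 females, 1 male). Between 28743866 and 48761429 reads were counted on genes per library. Camk2a, whose promoter drives the transgene, was expressed in both tissues of the control mice. The study describes the deleted cells as pyramidal neurons of cortex and striatum, and in its methods as glutamatergic neurons of the forebrain. Glia and inhibitory neurons, among them the striatal projection neurons, lie outside a glutamatergic target. Which cells Cre reached was not tested here. The study's methods name the line as a Camk2a-cre/ERT2 transgene, a form of Cre that is switched on by tamoxifen, and describe no tamoxifen for these mice.

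Trrap, the targeted gene, had 173, 156, 136 and 147 TMM-normalised CPM (reads scaled to a fixed library size) in control cortices (mice 55, 58, 63 and 64) and 121, 137, 135 and 146 in Trrap-FBΔ cortices (mice 57, 59, 60 and 61). The groups overlapped (log2 fold change -0.18, standard error (SE) 0.075, adjusted p = 0.083 from edgeR), and those of the striatum did too (-0.044, SE 0.048, adjusted p = 0.52). In the cortex Trrap was called lower without a filter on low counts (adjusted p = 0.046), with all 16 libraries in one edgeR fit (adjusted p = 0.047) and without the control cortex of mouse 63 (-0.23, adjusted p = 0.034). These counts cover the whole gene and not the floxed exons alone. The study reports that Trrap was efficiently deleted at this age, from western blots of the forebrain and from qPCR. The 7 striatal projection neuron markers, such as Drd1 and Ppp1r1b, summed to 191 to 914 CPM in control striata and 288 to 463 in Trrap-FBΔ striata, against 175 to 523 and 222 to 319 in the cortices, so that the labelled tissues overlapped in these markers, none of which was at 0. The striatum of mouse 58 had the lowest sum of the striata (191 CPM), below the 508 CPM of the cortex of the same mouse. The sum of the 5 excitatory neuron markers, a list with Slc17a7 and Tbr1, did separate the tissues, with 1284 to 1639 CPM in the cortices and 457 to 749 in the striata. Of these 5 genes, 4 were called lower and 1 higher in the striatum, in each genotype. Of all genes, 20.1% were called lower and 20.3% higher in controls, and 27.4% in each direction in Trrap-FBΔ mice. In bulk tissue, fewer cells of a type and less RNA per cell cannot be told apart.

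RefSeq promoter windows (GRCm38.p6) were at hand for 2 of the 5 members, Crmp1, with a pair of start sites, and Dpysl5. They are shown because both genes were lower in the mutants and because Sp1, the factor on which the study centres, binds the GC box GGGCGG. Each window is given 5′ to 3′ on the plus strand and ends at the last base before the first annotated exon or the start site, and GC boxes of either strand are in capitals.
Crmp1, chr5:37241808-37241939, upstream of the gene: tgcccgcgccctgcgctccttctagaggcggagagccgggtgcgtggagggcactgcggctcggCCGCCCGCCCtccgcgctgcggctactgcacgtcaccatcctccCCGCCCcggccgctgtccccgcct
Crmp1, chr5:37245514-37245763, in an intron, upstream of the second start site: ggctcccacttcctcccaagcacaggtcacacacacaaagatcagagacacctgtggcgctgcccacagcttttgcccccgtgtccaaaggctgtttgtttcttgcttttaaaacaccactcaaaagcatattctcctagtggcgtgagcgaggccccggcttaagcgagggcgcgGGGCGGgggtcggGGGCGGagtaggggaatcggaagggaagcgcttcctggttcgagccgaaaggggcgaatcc
Dpysl5, chr5:30711314-30711563, upstream of the gene: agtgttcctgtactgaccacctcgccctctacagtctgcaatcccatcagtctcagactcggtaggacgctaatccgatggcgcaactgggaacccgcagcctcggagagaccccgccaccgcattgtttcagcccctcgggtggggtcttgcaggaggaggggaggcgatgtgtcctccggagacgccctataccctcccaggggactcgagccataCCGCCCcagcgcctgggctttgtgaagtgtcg
The first Crmp1 window held 3 GC boxes, of which the first pair overlap each other, in 132 bases with a GC content of 77.3%. The second held 2 GC boxes and the Dpysl5 window 1, in 250 bases each. Of 32851 RefSeq windows of the mouse, 14.3% held a GC box in their first 132 bases and 32.7% in 250 bases. Their median GC content was 50.8% in 132 bases and 52.4% in 250 bases, against 59.6% in the second Crmp1 window and 62.8% in that of Dpysl5. The part of GC content in these matches was not tested. CTTTGT, the core of LEF1 sites, was found on either strand in the second Crmp1 window and in the Dpysl5 window, 1 time each, and CAGGTG, an E-box of E12, 1 time in the second Crmp1 window, against 16.5% and 17.2% of all windows of 250 bases. None of these matches overlapped a GC box. A match of letters is not evidence that a factor binds there. Dpysl2, Dpysl3 and Dpysl4 had no entry among the windows. The study lists Dpysl2 among its top differentially expressed Sp1 targets, with the targets taken from a database of published Sp1 binding.

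To compare the members with each other, counts were divided by the length of all annotated exons of a gene and given as RPKM, CPM per kilobase of exon. In the control cortex Dpysl3, which encodes CRMP4, a protein of newly formed neurons, had the highest level of the family with 143 ± 41.2 RPKM (SD, n = 4). Crmp1, which takes part in the response to Sema3a, followed with 93.6 ± 7.59, Dpysl5, which encodes CRMP5, the most divergent member, with 62.8 ± 8.40, Dpysl2, which encodes CRMP2, the best studied tubulin-binding member, with 53.1 ± 4.99, and Dpysl4, which encodes CRMP3, with 19.6 ± 1.06. Dpysl5 and Dpysl2 overlapped, and the other neighbours in this order did not. In the control striatum the order was Dpysl3 with 81.4 ± 6.35 RPKM, Dpysl2 with 57.9 ± 8.68, Crmp1 with 48.0 ± 4.41, Dpysl5 with 38.3 ± 4.53 and Dpysl4 with 17.2 ± 1.17, and the neighbours Dpysl2 and Crmp1 overlapped. All members were abundant genes. Dpysl4 stood above 86.3% of the tested genes in the control cortex, and Dpysl3 above 99.0%.

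With this length the order in the mutants was another. In the Trrap-FBΔ cortex Crmp1 had the highest mean with 66.2 ± 8.14 RPKM, overlapping with Dpysl3 at 49.1 ± 10.0, and Dpysl5 (33.1 ± 5.34) and Dpysl2 (31.8 ± 1.26) overlapped as well. In the Trrap-FBΔ striatum Dpysl2 (39.4 ± 1.54 RPKM), Crmp1 (37.7 ± 1.88) and Dpysl3 (34.6 ± 3.03) overlapped each with the next, above Dpysl5 (26.0 ± 1.75) and Dpysl4 (17.9 ± 0.759). The place of Crmp1 depended on the length used, since its annotated exons together (7046 bases) are longer than its longest transcript (3051 bases). With the length of the longest transcript Crmp1 had the highest mean in all 4 groups, and in the control cortex it stood at 216 RPKM, overlapping with Dpysl3 at 172. The order of the means was then the same in mutants and controls of a tissue, with Dpysl3 in the second place and Dpysl4 in the last.

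The 5 members summed to 372 ± 58.7 RPKM in the control cortex and to 199 ± 24.98 in the Trrap-FBΔ cortex (SD, n = 4 each). In the striatum the sums were 243 ± 21.2 and 155 ± 7.19 RPKM. The sums of mutants and controls did not overlap in either tissue, with 316 to 453 against 177 to 234 in the cortex and 224 to 264 against 149.7 to 166 in the striatum. Dpysl3 made up 37.9% ± 4.74 of the sum in control cortices and 24.5% ± 2.08 in Trrap-FBΔ cortices, and 33.6% ± 2.02 and 22.2% ± 1.05 in the striata. The share of Dpysl4 went the other way, from 5.33% ± 0.612 to 9.30% ± 0.509 in the cortex and from 7.09% ± 0.348 to 11.5% ± 0.229 in the striatum. The level of Dpysl4 itself was 19.6 and 18.4 RPKM in control and Trrap-FBΔ cortices and 17.2 and 17.9 in the striata. Its larger share thus comes from the smaller sum and not from a rise of its own. The share of Dpysl5 lay between 14.5% and 17.6% in all 16 libraries. Without the cortex of mouse 55, whose Dpysl3 level was the highest of the series, the control cortices had a sum of 345 ± 28.8 RPKM (n = 3) and a Dpysl3 share of 35.6% ± 1.03. With the length of the longest transcript the Dpysl3 share was 30.4% ± 4.29 in control and 18.5% ± 1.65 in Trrap-FBΔ cortices, and that of Dpysl4 5.05% ± 0.512 and 8.30% ± 0.432.

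**Figure D1:**
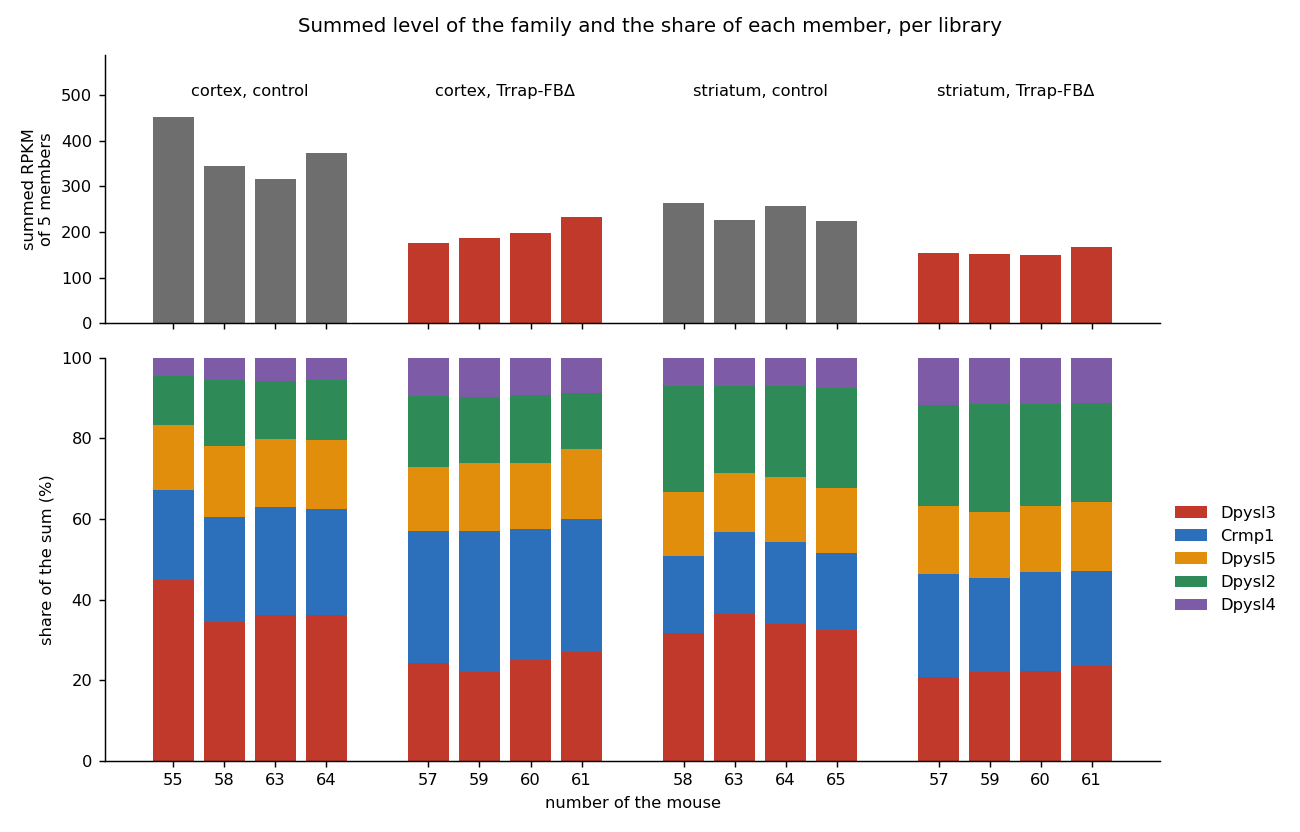
Summed RPKM of the 5 members (upper bars, from 0) and the percentage of that sum held by each member (lower stacked bars) in each of the 16 libraries, named by the number of the mouse. The sums of the Trrap-FBΔ libraries (red) lie below those of the controls of the same tissue (grey), and the share of Dpysl3 is smaller and that of Dpysl4 larger in them. The level of Dpysl4 itself overlaps between the genotypes in both tissues. The family was chosen on this contrast of genotypes.

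The contrast of genotypes asked which genes depend on Trrap, a scaffold of histone acetyltransferase complexes, in each tissue. Dpysl3, Dpysl5, Dpysl2 and Crmp1 were lower in the Trrap-FBΔ mice in both tissues, and Dpysl4 was not called in either. In the cortex 4 of 5 members were called lower at an adjusted p under 0.05, beside 17.6% of the 18268 genes tested that were called lower and 15.7% called higher, and the same 4 members had groups that did not overlap, beside 16.7% of all genes. In the striatum 4 of 5 were called lower, beside 15.8% of 18872 genes called lower and 14.4% called higher, and 4 of 5 did not overlap, beside 16.0%. Since the family was chosen on this contrast, nothing is read from these counts. The members had a median log2 fold change of -0.74 for the cortex and -0.55 for the striatum, beside 0.0010 and -0.0055 over all genes.

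Dpysl3 had 1343, 784, 756 and 893 CPM in control cortices (mice 55, 58, 63 and 64) and 283, 269.7, 328 and 416 in Trrap-FBΔ cortices (mice 57, 59, 60 and 61). The groups were far apart, and mouse 55 stood above the other controls. The log2 fold change was -1.54 (SE 0.19, 95% interval -1.95 to -1.14), rank 13 from the lowest of the 18268 genes, and it was -1.32 (SE 0.13) without the cortex of mouse 55. In the striatum Dpysl3 had 555, 540.3, 576 and 479 CPM in the controls of mice 58, 63, 64 and 65 and 212, 224, 221 and 258 in the Trrap-FBΔ mice. Both groups were tight, with a log2 fold change of -1.23 (SE 0.078, 95% interval -1.41 to -1.06), rank 49 of 18872.

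Dpysl5 had 542, 448, 393 and 469.8 CPM in the control cortices and 207, 231, 239.9 and 299.9 in the Trrap-FBΔ cortices, in the same order of mice. Its log2 fold change was -0.92 (SE 0.12, 95% interval -1.18 to -0.67). In the striatum it had 311, 241, 308 and 269.7 CPM in controls and 192, 186, 179 and 209 in Trrap-FBΔ mice, a log2 fold change of -0.56 (SE 0.085, 95% interval -0.75 to -0.37). The lowest control lay above the highest mutant in both tissues.

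Dpysl2 had 249, 255, 207 and 250.4 CPM in the control cortices and 140.5, 138, 150.0 and 147 in the Trrap-FBΔ cortices. The mutants were the tightest group here and the log2 fold change was -0.74 (SE 0.066, 95% interval -0.88 to -0.60). In the striatum the values were 314, 221, 262 and 249 CPM in controls and 172, 185, 172 and 183 in Trrap-FBΔ mice, with a log2 fold change of -0.55 (SE 0.092, 95% interval -0.76 to -0.35). Without the striatum of mouse 58, the highest control and the library low in striatal markers, it was -0.46 (SE 0.065).

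Crmp1 had 710.3, 635, 596 and 696 CPM in the control cortices and 409, 459, 453 and 546 in the Trrap-FBΔ cortices, and the highest mutant, mouse 61, came close to the lowest control. The log2 fold change was -0.50 (SE 0.088, 95% interval -0.69 to -0.31). In the striatum Crmp1 had 355, 326, 371 and 301 CPM in controls and 275, 249, 259.9 and 277 in Trrap-FBΔ mice. The groups again lay next to each other without overlap, with a log2 fold change of -0.35 (SE 0.071, 95% interval -0.51 to -0.19).

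Dpysl4 had 119.8, 116, 109 and 124 CPM in the control cortices and 101, 109, 109 and 121 in the Trrap-FBΔ cortices. In the striatum it had 109, 93.2, 107 and 102 CPM in controls and 109, 104, 103 and 113 in Trrap-FBΔ mice. The groups overlapped in both tissues. The log2 fold changes were -0.091 (SE 0.059, 95% interval -0.22 to 0.039) in the cortex and 0.059 (SE 0.056, 95% interval -0.066 to 0.18) in the striatum. Those of Crmp1, -0.50 and -0.35, lie outside these intervals, which is given as a description because the family was chosen on this contrast.

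**Figure D2:**
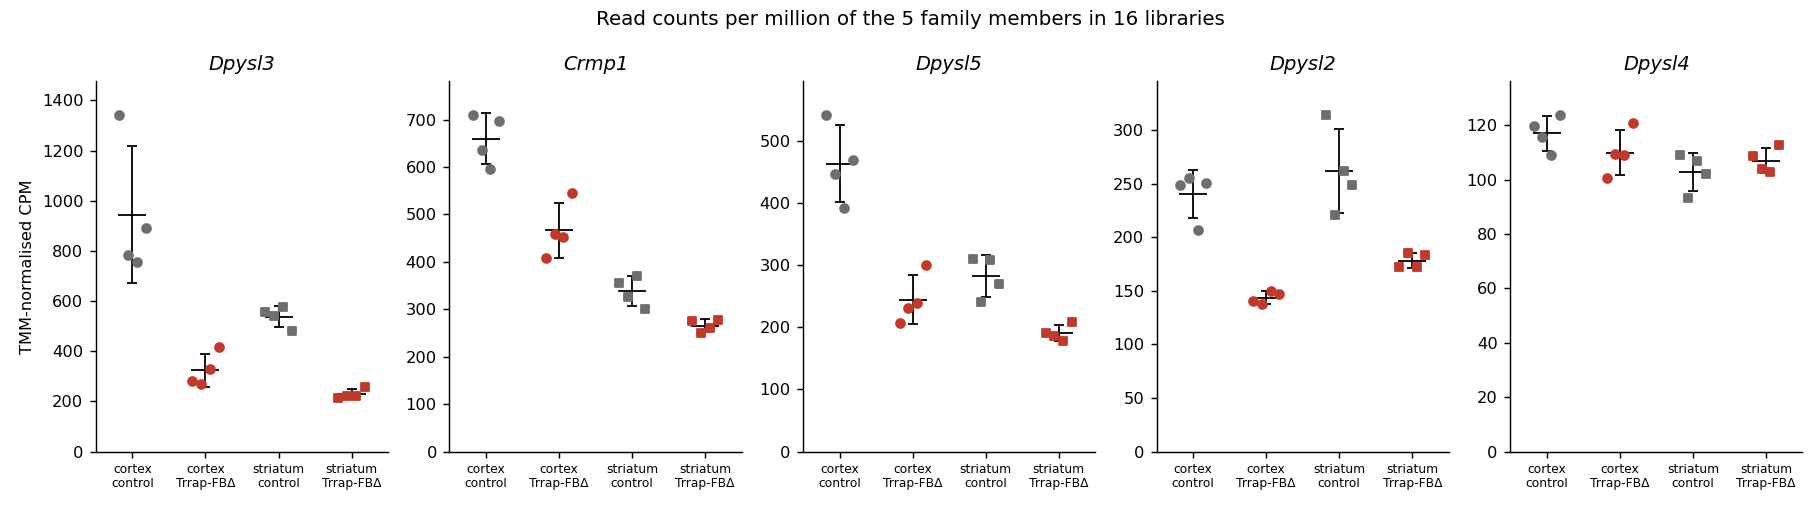
TMM-normalised CPM of each member (y axis, from 0) in the 4 libraries of each group, with the mean and SD as bars. Red Trrap-FBΔ points lie below the grey control points of the same tissue for Dpysl3, Crmp1, Dpysl5 and Dpysl2 and among them for Dpysl4, and the cortex of mouse 55 stands out for Dpysl3 at 1343 CPM. The contrast of red with grey points is the one on which the family was chosen.

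The cortex of mouse 55 also had the highest sum of the 16 immature neuron markers, such as Dcx, Gap43 and Stmn2, with 7713 CPM against 6398 to 7286 in the other control cortices, and the smallest number of reads. In the cortex this sum was 6398 to 7713 CPM in controls and 3964 to 4697 in Trrap-FBΔ mice, and in the striatum 4704 to 5455 and 3134 to 3510 CPM. Of these 16 genes, 12 were called lower in each tissue, beside 17.6% and 15.8% of all genes tested in cortex and striatum. The 1 called higher in the cortex was Igfbpl1 (0.44, adjusted p = 0.043 by edgeR), and Sox11 and Neurod1 were called in neither tissue. Tubb3 (log2 fold changes of -1.29 and -0.996 in cortex and striatum), Tmsb10 (-1.13 and -1.001) and Stmn2 (-1.04 and -0.93) fell the most among those called lower in both. The sum of 5 oligodendrocyte markers, Mbp among them, was 1593 to 2859 CPM in control cortices and 1141 to 1804 in Trrap-FBΔ cortices, with 5 of 5 called lower by edgeR and 3 of 5 by DESeq2. In the striatum 0 of 5 were called by edgeR, also at an unadjusted p under 0.05, and 0 by DESeq2. In the cortex 5 of 5 markers each of oligodendrocyte precursors, microglia and endothelial cells were called lower too, and in the striatum 3, 4 and 1 of 5. The 5 excitatory neuron markers had 2 called lower in the cortex and 3 in the striatum, the 6 mature neuron markers 1 and 2, the 7 neuroblast and progenitor markers 2 and 3, and the 7 striatal projection neuron markers 0 and 0 with edgeR or DESeq2 (0 and 1 at an unadjusted p under 0.05). Of 5 inhibitory neuron markers 1 was called higher in each tissue, and of 6 astrocyte markers 2 were higher and 2 lower in the cortex and 2 and 1 in the striatum. The part of these cell types in the values of the CRMP genes was not tested.

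The second question was how the family differs between the tissues. Crmp1 was lower in the striatum than in the cortex in both genotypes, and in this comparison it was the member with the largest difference. The log2 difference of striatum against cortex was -0.96 (SE 0.085, adjusted p = 1.9e-05 by edgeR) in controls and -0.81 (SE 0.078, adjusted p = 3.3e-06) in Trrap-FBΔ mice. Dpysl3 was lower as well, with log2 differences of -0.81 (SE 0.17) in controls and -0.51 (SE 0.12) in Trrap-FBΔ mice. Dpysl5 followed with -0.71 (SE 0.11, adjusted p = 0.00061) and -0.35 (SE 0.095, adjusted p = 0.0074).

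Dpysl2 went the other way. In Trrap-FBΔ mice it was higher in the striatum by 0.31 on the log2 scale (SE 0.046, adjusted p = 0.00012), without overlap between the tissues, whereas in controls the difference of 0.13 (SE 0.11, 95% interval -0.11 to 0.37, adjusted p = 0.39) did not pass. Dpysl4 differed by -0.18 (SE 0.064, adjusted p = 0.040) in controls, and this call was lost with the mouse as a block (adjusted p = 0.064) and without the cortex of mouse 55, 58 or 64 or the striatum of mouse 63 or 65 (adjusted p between 0.058 and 0.10). In Trrap-FBΔ mice its difference was -0.040 (SE 0.055, 95% interval -0.16 to 0.081, adjusted p = 0.58). Of the 4 members tested, 3 were called lower and 0 higher in control striata, beside 20.1% of 18284 genes called lower and 20.3% called higher. In Trrap-FBΔ striata 2 of 4 were called lower and 1 higher, beside 27.4% of 18872 genes in each direction (27.4% higher).

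**Figure D3:**
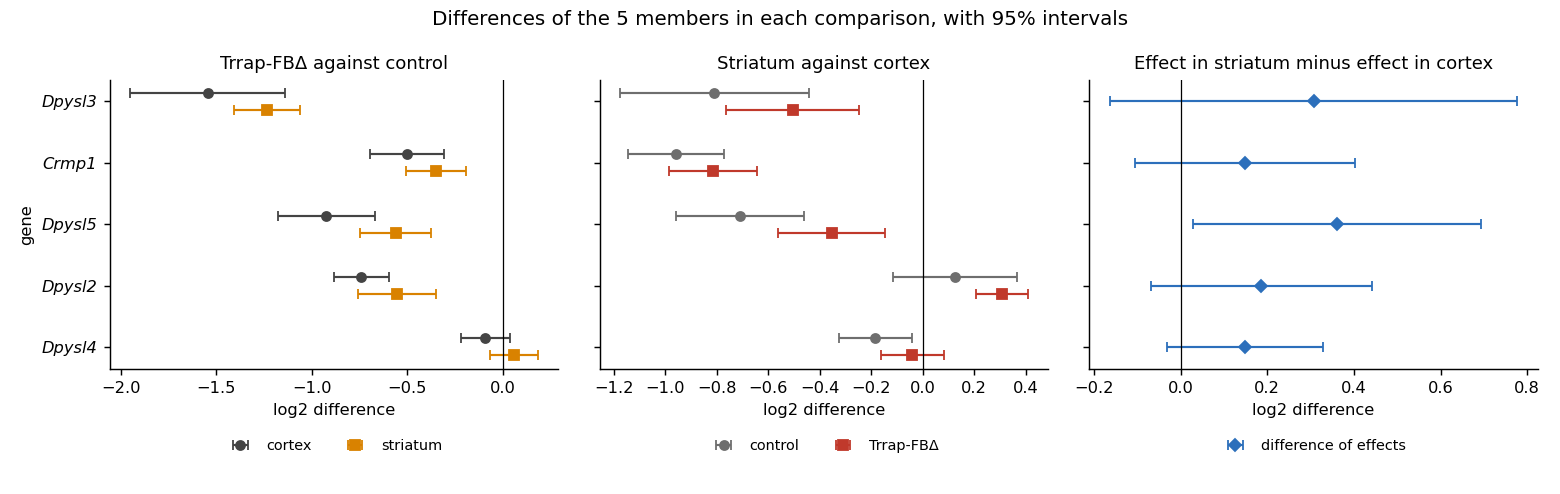
Log2 differences of the 5 members (points) with 95% intervals (bars) for Trrap-FBΔ against control, for striatum against cortex and for the effect in the striatum minus the effect in the cortex, each on its own scale. The first panel describes the contrast on which the family was chosen, and in the second Dpysl2 alone lies to the right of 0, in both genotypes.

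Because 7 mice gave both tissues, the direction could also be read within animals. The striatum was lower than the cortex in 7 of 7 mice for Crmp1, Dpysl3 and Dpysl5, with log2 differences between -0.98 and -0.57, -0.69 and -0.27, and -0.71 and -0.11. Dpysl2 was higher in the striatum in 7 of 7 mice, by 0.067 to 0.43. Dpysl4 was lower in 6 mice and higher in 1, mouse 57. For Dpysl3 in controls the difference of -0.81 leaned on the cortex of mouse 55, which gave no striatum. It was -0.60 (SE 0.086) without that library and -0.53 (SE 0.070) with the mouse as a block. Without the striatum of mouse 58 the control differences were -0.99 for Crmp1, -0.83 for Dpysl3 and -0.76 for Dpysl5, and that of Dpysl2 was 0.022.

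**Figure D4:**
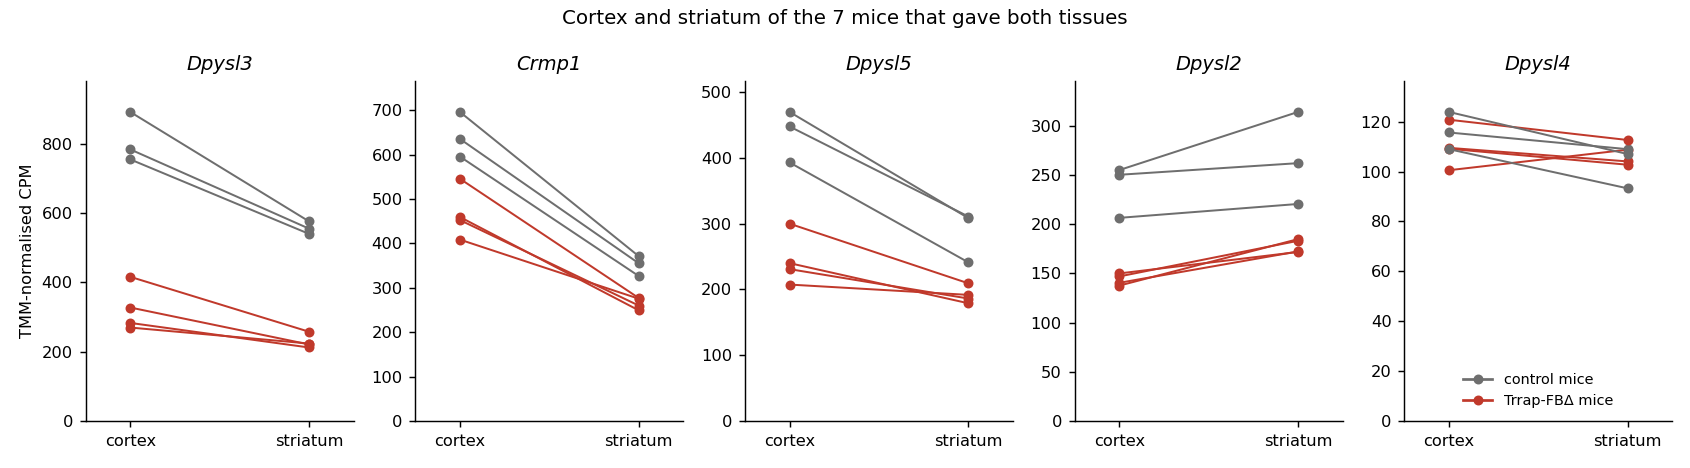
TMM-normalised CPM (y axis, from 0) of each member in the cortex and the striatum of the 7 mice with both tissues, joined by a line per mouse. Lines fall for Dpysl3, Crmp1 and Dpysl5 in 7 of 7 mice and rise for Dpysl2 in 7 of 7.

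Markers of several other cell types differed between the tissues, and those of endothelial cells did not (0 of 5 called in either genotype). All 5 oligodendrocyte markers and all 5 precursor markers were called higher in the striatum in both genotypes, with an oligodendrocyte sum of 2891 to 8745 CPM in control and 3606 to 6415 in Trrap-FBΔ striata. Of the 16 immature neuron markers 11 were called lower in the striatum in controls and 10 in Trrap-FBΔ mice, and of the 6 mature neuron markers 5 in each. Of all genes, 20.1% and 27.4% were called lower and 20.3% and 27.4% higher. In the same order, microglia had 4 and 4 of 5 lower, and astrocytes 3 and 4 of 6 higher and 1 and 2 lower. Inhibitory neurons had 3 and 3 of 5 higher and 0 and 2 lower, and striatal projection neurons 1 and 4 of 7 higher. Neuroblasts and progenitors had 1 and 2 of 7 higher and 0 and 1 lower. The part of these cells in the differences of the CRMP genes was not tested.

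The third comparison was whether the genotype effect on a member differed between the tissues. For every member the log2 fold change was more negative in the cortex than in the striatum, but 0 of the 4 members tested passed the test of the difference, beside 0.437% of 19438 genes (85 genes) that did. The difference of effects was 0.36 for Dpysl5 (SE 0.16, 95% interval 0.028 to 0.69, adjusted p = 0.36 by edgeR) and 0.31 for Dpysl3 (SE 0.22, 95% interval -0.16 to 0.78). It was 0.19 for Dpysl2 (95% interval -0.069 to 0.44), 0.15 for Dpysl4 (-0.031 to 0.33) and 0.15 for Crmp1 (-0.11 to 0.40), with adjusted p-values of 0.59, 0.52 and 0.68. With DESeq2 0 of 4 passed too. Dpysl5 alone reached an unadjusted p under 0.05 with edgeR. The value of Dpysl3 was 0.087 without the cortex of mouse 55 and 0.050 with the mouse as a block.

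The genes that CRMPs work with were described by 3 lists. Of 16 binding partners, the cortex had 9 lower and 2 higher calls and the striatum 9 and 1. Of all genes tested, 17.6% were called lower and 15.7% higher in the cortex, and 15.8% and 14.4% in the striatum. The median log2 fold changes of the partners were -0.33 and -0.23, beside 0.0010 and -0.0055 over all genes. Called lower in both tissues were 6, beside 10.5% of the 17938 genes tested in both. They were the tubulin genes Tubb3, Tubb2b, Tuba1a, Tuba1b and Tubb2a, and Cacna1b was the only other partner among them. The count is thus mostly one of tubulins and not of the partners as a class. The largest falls were those of Tubb3 (-1.29, SE 0.10, and -0.996, SE 0.088), Tubb2b (-1.03 and -0.81) and Tuba1a (-0.94 and -0.81), whose products are subunits that CRMPs bind. Tubulin genes are close copies of each other and reads that map to several of them were not counted, so that their counts are less certain. Sytl1, which links CRMP2 to vesicles with TrkB, was higher (1.01, SE 0.18, and 1.29, SE 0.16) at 0.562 to 1.62 CPM on average per group. Chn1, a GTPase activating protein of Rac, had a cortical log2 fold change of -0.0095 (adjusted p = 0.94) and a striatal one of -0.60 (adjusted p = 0.0014).

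Of 19 enzymes that modify CRMPs, the cortex had 11 lower and 2 higher calls, beside 17.6% and 15.7% of all genes. The striatum had 10 and 1, beside 15.8% and 14.4%, and the medians were -0.14 and -0.18. Called lower in both were 8, beside the same 10.5% of all genes, with the largest falls in Capn1, a calpain protease that cleaves CRMPs (-0.44, adjusted p = 0.0039, and -0.40, adjusted p = 0.0053), Ppp2r2b, a subunit of the phosphatase PP2A (-0.28 and -0.39), and Fes, a tyrosine kinase (-0.31 and -0.38). Of 20 genes of semaphorin signalling, 8 were called lower in each tissue, and 1 was called higher in cortex and 2 in striatum. These counts stand beside the same shares of all genes, and the medians were -0.13 and -0.20. Called lower in both were 5, again beside 10.5%, led by L1cam, an adhesion molecule in the neuropilin receptor (-0.83 and -0.48), Plxnd1, a plexin (-0.43 and -0.78), and the ligand Sema3a itself (-0.29, adjusted p = 0.0052, and -0.74, adjusted p = 0.00081). In these 3 lists, which hold 55 genes, 0 passed edgeR's test of a difference in effect between the tissues and 13 had an unadjusted p under 0.05. With DESeq2 the genes that passed were 4, Sema3a, Plxna3, Sema3f and Chn1.

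**Figure D5:**
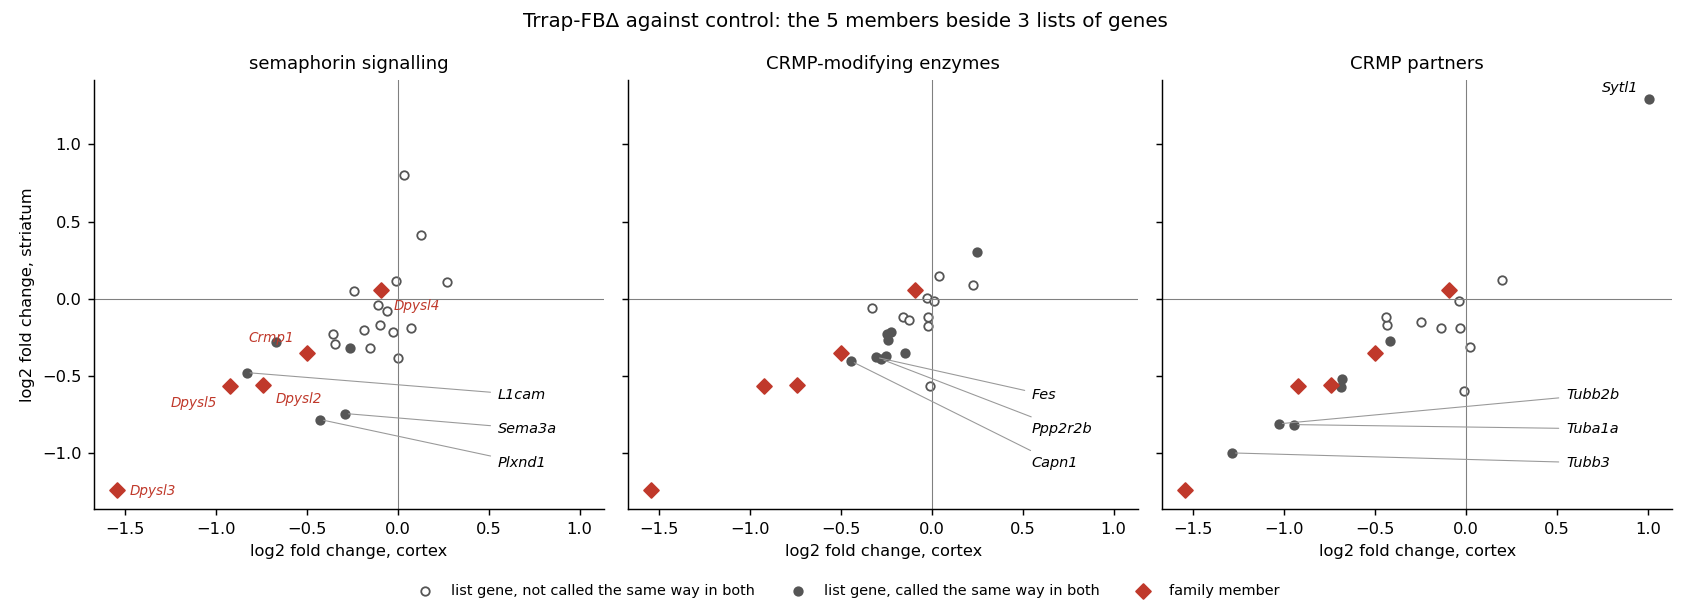
Log2 fold changes of Trrap-FBΔ against control in the cortex (x axis) and the striatum (y axis) for the genes of 3 lists (circles, filled where called the same way in both tissues) and the 5 members (red diamonds, the same in each panel and named in the first). Both axes show the contrast on which the family was chosen for the fall of Dpysl3, so that its place is a description only. Dpysl3 lies beyond every gene of the lists at the lower left, and the tubulin genes Tubb3, Tubb2b and Tuba1a come closest to it. Most genes of semaphorin signalling and the modifying enzymes lie nearer to 0 than Dpysl2 and Dpysl5.

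Dpys, the dihydropyrimidinase that the family resembles, averaged 0.141 to 0.330 CPM per group and was not tested in the cortex. Dpyd, the first enzyme of the same route, averaged 5.84 to 8.97 CPM, with 0.30 (adjusted p = 0.14) and -0.16 (adjusted p = 0.27) as log2 fold changes. Upb1, the last enzyme of that route, was higher in both tissues (1.14 and 1.09) at 0.664 to 3.02 CPM.

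Among 10596 genes with at least 10 CPM on average, those whose profile over the 16 libraries lay nearest to Dpysl3 were Tubb5, Trim67 and Tubb3, with root mean square differences of centred log2 CPM of 0.19, 0.27 and 0.27. Trim67 was also among the nearest to Dpysl5 (0.13), with Mapt, the gene of tau (0.12), and Myc (0.16). The profile of Dpysl2 was nearest to Armcx1, Ssh3 and Marcks (0.11 to 0.12) and that of Crmp1 to Slc29a4 (0.085), Dmtn (0.11) and Piezo1 (0.12). Dpysl4, which varied little, was nearest to Kmt2b, Ap3d1 and Plcg1 (0.040 to 0.042). Since the nearest genes were picked for their likeness, their own changes are not given as a result.

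In the genome (GRCm38) the members do not lie in a cluster. Crmp1 (ENSMUSG00000029121) lies on chromosome 5 from 37241940 to 37292133 on the plus strand and Dpysl5 (ENSMUSG00000029168) on the same chromosome from 30711564 to 30799375, also on the plus strand. Dpysl2 (ENSMUSG00000022048) lies on chromosome 14 from 66802864 to 66868688 on the minus strand. Dpysl3 (ENSMUSG00000024501) lies on chromosome 18 from 43320984 to 43438286 on the minus strand, and Dpysl4 (ENSMUSG00000025478) on chromosome 7 from 139086001 to 139102704 on the plus strand.

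The genes next to the members on the chromosome changed in either direction or were not called. On either side of Dpysl3, Stk32a had log2 fold changes of -0.30 and -0.26 in the cortex and the striatum and Gm3650 of -0.69 and -0.44. None of the 4 values passed (adjusted p between 0.12 and 0.41), and Gm3650 had only 201 reads in the 16 libraries. Beside Crmp1, Evc2 was higher (1.19 and 0.72), and Jakmip1 was lower in the cortex (-0.26) and had -0.081 in the striatum (adjusted p = 0.41). Evc overlaps Crmp1 on the other strand and had 5522 reads in the 16 libraries, where reads were counted by strand. It was higher in the cortex (0.32, adjusted p = 0.022) and had 0.11 in the striatum (adjusted p = 0.27). Around Dpysl4, which was not called, Jakmip3 (-0.22 and -0.29) and Stk32c (-0.29 and -0.31) were lower in both tissues. Adra1a (-0.27 and -0.51) and Gm5464 (1.15 and 1.24) flank Dpysl2, and Cenpa (-0.36 and -0.77) and Mapre3 (0.17 and 0.26) flank Dpysl5, each pair with a change in opposite directions. Gm5464, 162 bases from Dpysl2 on the other strand, had only 276 reads in the 16 libraries. Gm42764 overlaps Dpysl5 on the same strand and had 0 reads.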

How the data were processed

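Counts were taken as deposited. Per the labels and the study's methods, the authors made stranded mRNA libraries, demultiplexed single-end reads with bcl2fastq 1.8.4, aligned them to GRCm38 with STAR 2.5.4b and counted uniquely mapped reads per Ensembl gene by strand with featureCounts 1.5.0, without normalization. Symbols, loci and exon lengths came from GENCODE of the same build, and 53706 of 53801 identifiers had a symbol.

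Genes were filtered with filterByExpr, scaled with TMM and tested across the whole table in R 4.3.3 by edgeR 4.0.16 (glmQLFit and glmQLFTest), with Benjamini-Hochberg adjustment and a threshold of 0.05. Genotypes were compared within each tissue and tissues within each genotype (8 libraries each), and the difference of effects over all 16. Standard errors come from the F statistic and intervals cover 95%. The fits were also run on simulated counts. Those were drawn independently for each library, so that they do not bear on tissues that share a mouse. DESeq2 1.42.0, other scalings and filters, sex as a covariate and leaving out each library were tried as alternatives, as was the mouse as a block, which uses only mice with both tissues. Deviations from the group means of both tissues of a mouse correlated with r between 0.12 and 0.37 over 19438 genes in 7 of 7 pairs, against -0.27 to 0.13 in 25 pairs of different mice, so that the mice pair the libraries. The 24 pairs of libraries within groups differed beyond sampling noise (chi-square over degrees of freedom at least 7.56).

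Named are the members, Trrap, the genes next to or overlapping a member, the 3 genes with the nearest profile to each member (log2 of CPM + 0.5), and in each list the 3 largest falls and 2 largest rises, by the mean of both tissues, among genes called the same way in both. One gene under this rule is not reported here. Other genes were named with their values known. The members, lists and tests were chosen with earlier results of these data known.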

Additional observations from a re-analysis of the deposited data

Results flagged for a closer look

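Dpysl2 in the control cortex was flagged because mouse 63, with 207 CPM, lay below the other 3 control cortices, at 249 to 255 CPM. The gap to the next library was 0.863 of the range of the group, above Dixon's critical value for 4 samples. Among 20 groups tested, 4 groups of 5 members, chance flags about 1 in 20. Without this library the log2 fold change of Dpysl2 in the cortex was -0.81 (SE 0.049) instead of -0.74.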

How the results depend on the processing

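Of 425 recomputed values of the 5 members, those of the contrast that chose them included as a description, 415 kept their direction and their side of the threshold. The 8 that lost the call all concern Dpysl4 between tissues in controls (adjusted p between 0.055 and 0.10 in them). Its difference in Trrap-FBΔ mice, not called, turned from -0.040 to 0.029 with upper-quartile scaling and to 0.0062 without the cortex of mouse 61 (range with 1 library left out, -0.084 to 0.0062), and that of Trrap in controls from -0.066 to 0.014 with the mouse as a replicate block. The block changed no other call of a member. The count of 85 genes whose effect differs between tissues became 195 without a filter on low counts, 219 under the replicate block of mice and 429 by DESeq2, and between 18 and 151 with 1 library left out. With the length of the longest transcript the mean RPKM in control cortices was 216 for Crmp1, 89.2 for Dpysl5 and 27.9 for Dpysl4, and in control striata 111 for Crmp1, 98.1 for Dpysl3, 54.4 for Dpysl5 and 24.5 for Dpysl4. Dpysl4 had 18.4 RPKM in control cortices without TMM factors. With 4 mice a group, a difference of effect whose interval holds 0 cannot be told from 0, and the cause of the changes listed was not tested, other than the shorter length itself for RPKM.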
